A study of Mus musculus with 9 samples.

Results

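A set of 10 mouse genes of inflammatory monocytes and macrophages is described here in the heart transcriptomes of control, diabetic and spermine-treated diabetic mice. They are Marco, Saa3, Chil3, Clec4e, Cd14, Il1b, Adgre4, Clec12a, Ly6c2 and Plac8, 10 of the 22851 genes in the deposited count table. Marco and Saa3 were selected on their counts in SPM compared to DCM, where they stood among the genes with the largest rises, and the other genes were added as related monocyte genes. The SPM compared to DCM values of the 10 genes are therefore a description of how they were chosen and carry no test.

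RNA from heart myocardium of male C57BL/6 mice (C57BL/6J in the study's methods) was sequenced in 3 groups of 3 libraries. The CK group (control check) received citrate buffer. The DCM group (diabetic cardiomyopathy) received 1 intraperitoneal injection of streptozotocin, a toxin of insulin-producing cells, and was kept for 12 weeks. The SPM group received the same streptozotocin injection plus spermine, a natural polyamine, at 1 mg/kg, daily for 2 weeks before streptozotocin and every other day during the 12 weeks after it. Mice were 6 to 8 weeks old at the start. Streptozotocin was thus shared by DCM and SPM, and none of the 3 groups received spermine alone. The study's methods give both RNA from 3 mice per group and 18 hearts mixed by 6, and which of the 2 descriptions applies to these libraries is not settled, so p-values measure the spread between these libraries.

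Monocytes leave the bone marrow and enter injured tissue. Classical monocytes carry Ly6C and CCR2, and nonclassical monocytes, which patrol vessels, carry CX3CR1 and little Ly6C. Once in tissue they sense microbes and dying cells through scavenger receptors, C-type lectins and CD14, the co-receptor of TLR4, and they release IL-1β. The resident macrophages of the heart form a separate, larger population marked by complement C1q, CD163, MRC1 and LYVE1. In RNA from whole tissue, a change in the number of such cells and a change in RNA per cell cannot be told apart.

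The libraries held between 29901300 and 39718680 counts. Heart muscle markers were present in each library, where the 7 of 8 listed genes in the table summed to between 39322 and 53064 normalized CPM (counts scaled to the size of each library, termed CPM below). The extraction protocol in the labels speaks of retinas, but the retina list summed to between 15.5 and 21.8 CPM, nearly all of it Rom1, and the photoreceptor regulator Crx was at 0 in each CK and SPM library. The heart muscle sum was lower in SPM (39322 to 45402 CPM) than in DCM (46134 to 52683) and CK (47546 to 53064). Its most abundant gene, Myh6, averaged 23787 CPM in CK, 21064 in DCM and 17159 in SPM. The median log2 change of the 7 genes in SPM compared to DCM was -0.17, and 2 were above 0, Tnnt2 (0.00) and Nppa (0.74). The share of counts from mitochondrial genes was 21.0% to 21.1% in SPM, 15.5% to 18.9% in DCM and 13.7% to 16.2% in CK. Both moved with the SPM differences described below, and their part in them was not tested. A few libraries stood apart in ways that touch the genes below. CK replicate 2 held lung epithelium genes (Scgb1a1 with 1105 counts and Sftpc with 538, both at 0 in the other CK libraries). SPM replicates 1 and 2 held liver genes, with Alb, the gene of serum albumin, at 8041 and 3517 counts against 9 in SPM replicate 3. SPM replicate 2 lay between the other SPM libraries for 66.2% of genes, against 15.7% to 39.0% for the other 8 libraries within their groups. Of 2656 genes at 0 in SPM replicates 1 and 3, 30 had a count in SPM replicate 2, where the same tally for the other libraries gave 485 to 1162. Whether SPM replicate 2 is an independent sample was not settled, so values without it are given below.

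Promoter sequence is shown for 4 of the genes, Marco and Saa3, from which the set was built, and Chil3 and Plac8, which were above DCM in each SPM library by a smaller log2 difference and were even across the SPM libraries. The sequences are the bases before the start of transcription in RefSeq, build GRCm38.p6, written 5′ to 3′ on the strand of the gene, without bases that the GENCODE annotation places inside the gene. On GRCm38 the protein-coding genes themselves span chr1:120474538-120505024 (Marco), chr7:46711998-46715700 (Saa3), chr3:106147554-106167564 (Chil3) and chr5:100553725-100572245 (Plac8). The sequences are chr1:120505025-120505274 (Marco), chr7:46715701-46715926 (Saa3), chr3:106167565-106167814 (Chil3) and chr5:100572246-100572455 (Plac8), each on the minus strand. Capitals mark matches, on either strand, to TTNNGNAA, a form of the site of C/EBP factors, and to GAGGAA, the core of the site of PU.1. Both are factors of the myeloid lineage.
Marco: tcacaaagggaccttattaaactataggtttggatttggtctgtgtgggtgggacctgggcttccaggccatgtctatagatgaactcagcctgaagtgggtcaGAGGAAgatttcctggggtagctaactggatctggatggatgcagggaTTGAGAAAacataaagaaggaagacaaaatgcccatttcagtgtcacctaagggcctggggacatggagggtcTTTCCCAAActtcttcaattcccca
Saa3: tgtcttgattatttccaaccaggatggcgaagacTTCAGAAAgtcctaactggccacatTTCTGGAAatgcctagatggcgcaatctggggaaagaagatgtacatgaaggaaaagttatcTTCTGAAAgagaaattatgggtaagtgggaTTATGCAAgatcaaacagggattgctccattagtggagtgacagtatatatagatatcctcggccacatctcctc
Chil3: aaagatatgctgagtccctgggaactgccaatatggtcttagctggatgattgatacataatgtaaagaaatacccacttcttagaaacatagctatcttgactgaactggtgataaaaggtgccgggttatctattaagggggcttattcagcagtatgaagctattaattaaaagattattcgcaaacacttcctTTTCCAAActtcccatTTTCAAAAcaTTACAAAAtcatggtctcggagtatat
Plac8: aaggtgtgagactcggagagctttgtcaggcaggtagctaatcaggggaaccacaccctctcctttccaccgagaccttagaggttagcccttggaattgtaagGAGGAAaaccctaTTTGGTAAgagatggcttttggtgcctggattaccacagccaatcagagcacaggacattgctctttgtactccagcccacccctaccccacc

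Of the 10 genes, 9 were searched over the 250 bases before their RefSeq start, and Cd14 was left out. Saa3 held 4 matches to TTNNGNAA, and Marco held 3, of which 2 overlap each other on the minus strand. All 9 searched genes had at least 1 match to TTNNGNAA, a pattern found in 36.85% of 32851 promoters of the same length, and 5 of 9 had GAGGAA, found in 23.25%. TATAAA, the TATA box, was found in Clec4e at 29 and in Il1b at 31 bases before the start, and in 12.37% of all promoters. The NF-kB site matched in 0 of 9 genes and in 7.251% of all promoters. These are matches of letters and not measured binding.

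The plot of the genes by library shows all 90 values.

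**Figure D1:**
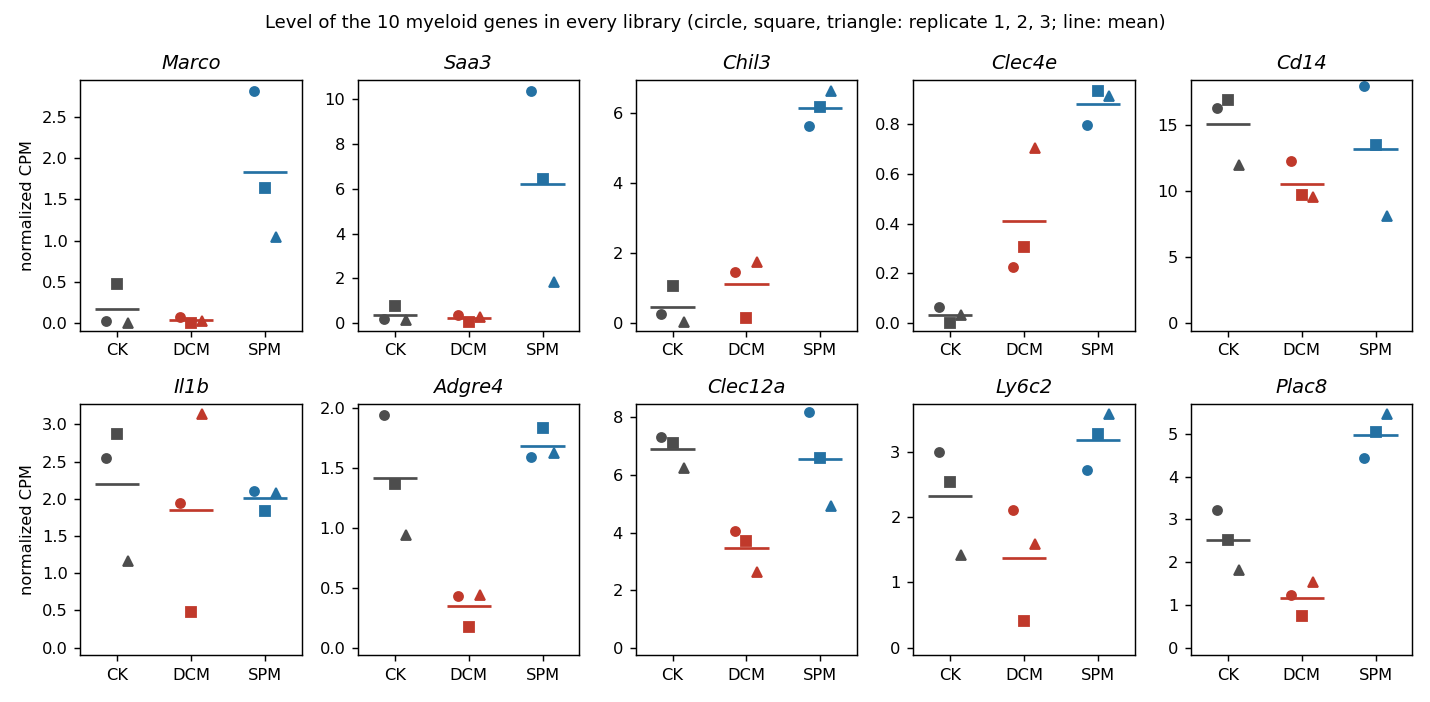
Normalized CPM of the 10 genes (vertical axes from 0) in the CK, DCM and SPM libraries, with circles, squares and triangles for replicates 1, 2 and 3 and a line at the group mean. Marco, Saa3, Chil3, Clec4e and Plac8 were higher in each SPM library than in any other library, whereas Cd14 and Il1b overlapped between groups.

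Marco is a class A scavenger receptor that takes up bacteria and particles. It had 1, 17 and 0 counts in CK replicates 1 to 3, 3, 0 and 1 in DCM, and 92, 51 and 32 in SPM. The gene was thus near absence in DCM and present in each SPM library, highest in replicate 1. A count of 0 allows up to 0.1003 CPM in CK replicate 3 and up to 0.0982 CPM in DCM replicate 2, for counting error only. Normalized levels were 0.169 ± 0.265 CPM in CK, 0.0350 ± 0.0382 in DCM and 1.83 ± 0.900 in SPM (SD, n = 3), and the fitted log2 difference of SPM from DCM was 5.45 (SE 0.68).

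Saa3 encodes an acute-phase serum amyloid A that macrophages and other cells make in tissue. It had 6, 28 and 4 counts in CK, 15, 1 and 10 in DCM, and 339, 201 and 56 in SPM. The SPM values did not overlap the other groups, and SPM replicate 3, the lowest of its group, was 4.81 times the highest DCM library in CPM. Its levels were 0.368 ± 0.360 CPM in CK, 0.235 ± 0.179 in DCM and 6.21 ± 4.27 in SPM, with a log2 difference of 4.64 (SE 0.68) between SPM and DCM. Saa1 and Saa2, the liver-made relatives of Saa3, had 68 and 45 counts in SPM replicate 1 and 1 count each in SPM replicate 3, too few to pass the filter on low counts. In the transcripts of Saa3, 3.57% of the 50-base windows also occur in another gene, chiefly Malat1, so its counts are uncertain to that extent.

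Chil3 encodes Ym1, a chitinase-like protein of monocytes and alternatively activated macrophages. It had 8, 38 and 1 counts in CK, 58, 4 and 59 in DCM, and 184, 192 and 203 in SPM. The SPM libraries were close to one another and above all others, whereas DCM replicate 2 was far below the other DCM libraries. Levels were 0.449 ± 0.541 CPM in CK, 1.11 ± 0.854 in DCM and 6.13 ± 0.492 in SPM, and the log2 difference of SPM from DCM was 2.43 (SE 0.48). Of the 50-base windows in the transcripts of Chil3, 26.9% also occur in another gene, chiefly Chil4, which was not analysed here, so its counts are uncertain to that extent.

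Plac8 is expressed by monocytes and other leukocytes. It had 101, 90 and 56 counts in CK, 49, 22 and 52 in DCM, and 145, 157 and 168 in SPM. Each SPM library was above each CK library and each CK library above each DCM library, with levels of 4.98 ± 0.521, 2.52 ± 0.700 and 1.17 ± 0.394 CPM. The log2 difference of SPM from DCM was 2.08 (SE 0.25).

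Adgre4 encodes an adhesion receptor related to F4/80. Its counts were 61, 49 and 29 in CK, 17, 5 and 15 in DCM, and 52, 57 and 50 in SPM. All DCM values lay below all others, while CK and SPM overlapped. Levels were 1.42 ± 0.503 CPM in CK, 0.346 ± 0.153 in DCM and 1.68 ± 0.130 in SPM, a log2 difference of 2.25 (SE 0.38) between SPM and DCM. Adgre4 overlaps a pair of genes on the opposite strand, and whether the counting used strand is not stated.

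Clec12a is an inhibitory C-type lectin of myeloid cells that binds uric acid crystals. It had 230, 255 and 192 counts in CK, 160, 109 and 90 in DCM, and 268, 205 and 151 in SPM. DCM was lowest without overlap, and the levels of CK and SPM, 6.89 ± 0.581 and 6.56 ± 1.64 CPM, lay within each other's spread. The log2 difference of SPM from DCM (3.46 ± 0.728 CPM) was 0.93 (SE 0.22).

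Ly6c2 encodes one of the Ly6C proteins by which classical monocytes are recognized. Its counts were 94, 91 and 44 in CK, 84, 12 and 54 in DCM, and 89, 102 and 110 in SPM. SPM lay above DCM without overlap in CPM but overlapped CK, and DCM replicate 2 was again the lowest library. Levels were 2.32 ± 0.806, 1.37 ± 0.876 and 3.19 ± 0.436 CPM in CK, DCM and SPM. The log2 difference of SPM from DCM was 1.20 (SE 0.42). Ly6c1 shares sequence with Ly6c2 (14.4% of the 50-base windows of Ly6c2 occur in another gene), and at 6252 to 9296 counts per library it was far more abundant, so reads counted in the wrong one of the pair could weigh on Ly6c2.

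Clec4e encodes Mincle, a C-type lectin that binds microbial glycolipids and a protein of dead cells. It had 2, 0 and 1 counts in CK, 9, 9 and 24 in DCM, and 26, 29 and 28 in SPM. It was the gene of the set that was at or near 0 in each CK library and present in each DCM library. SPM lay above DCM without overlap in CPM (0.879 ± 0.0740 against 0.412 ± 0.256), with a log2 difference of 1.10 (SE 0.46). The DCM group held 42 counts and the CK group 3, a ratio of 13.3 after scaling with a 95% counting interval of 4.25 to 67.0 that leaves out the spread between libraries. Neutrophil markers moved the same way, with 6 of 6 tested above 0 in DCM compared to CK (median log2 change 1.04), S100a8 and S100a9 called higher, and sums of 8.25 to 29.0 CPM in CK and 17.0 to 33.9 in DCM. Ltf, a neutrophil marker that was not tested in this comparison, went the other way, with 615 counts in CK and 16 in DCM. Of its CK counts, 606 (16.9 CPM) were in CK replicate 2, the library with the CK sum of 29.0 CPM. The part of neutrophils in the Clec4e counts was not tested.

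Cd14 and Il1b, the endotoxin co-receptor and the cytokine of the set, overlapped between the groups. Cd14 had 510, 604 and 368 counts in CK, 487, 286 and 324 in DCM, and 586, 420 and 250 in SPM, with SPM replicate 3 below all DCM libraries in CPM. Il1b, the gene of IL-1β, had 80, 103 and 36 counts in CK, 77, 14 and 107 in DCM, and 69, 57 and 64 in SPM. The SPM libraries of Il1b lay inside the range of both other groups. Log2 differences of SPM from DCM were 0.33 (SE 0.23) for Cd14 and 0.11 (SE 0.47) for Il1b. Il1b overlaps the antisense gene Il1bos.

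On the FPKM scale, which is per length, Cd14 had the highest mean level over the 9 libraries (8.25), followed by Plac8 (2.36), Clec12a (1.75), Chil3 (1.64), Il1b (1.496), Saa3 (1.01), Ly6c2 (0.858), Marco (0.347), Adgre4 (0.331) and Clec4e (0.0899). In SPM alone, Chil3 (3.89) and Saa3 (2.76) came after Cd14 (8.20) and Plac8 (3.98), whereas in DCM Saa3 was at 0.106 and Marco at 0.0180.

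DCM was then compared to CK, the comparison that asks what streptozotocin diabetes changed. Adgre4 and Clec12a were downregulated in DCM, and 0 of the genes were called higher. A gene is called here at an edgeR adjusted p below 0.05 and a change of at least 1.5-fold, and 7 of the 10 genes passed the filter on low counts. The DCM libraries also served in choosing the genes, so this is not independent of that choice. Of the 7, 2 were called lower, where 2.31% of all 14402 genes tested were called lower and 2.03% higher. The log2 change was -2.002 (SE 0.48, adjusted p = 0.0188 by edgeR) for Adgre4 and -0.996 (SE 0.19, adjusted p = 5.82e-03) for Clec12a. Plac8 (-1.10, SE 0.34, edgeR adjusted p = 0.0599) was lower in each DCM library than in any CK library, as were Adgre4 and Clec12a. That makes 3 genes, and 14.6% of all genes tested were likewise lower without overlap. Cd14 (-0.52, SE 0.15, edgeR adjusted p = 0.0488) was within 1.5-fold. Ly6c2 (-0.74, SE 0.47, edgeR adjusted p = 0.366), Il1b (-0.24, SE 0.51, adjusted p = 0.829) and Chil3 (1.28, SE 0.87, adjusted p = 0.405) did not pass. The median log2 change of the 7 genes was -0.74, beside 0.00 for all genes. Adgre4 was no longer called without CK replicate 1, CK replicate 2, DCM replicate 2 or DCM replicate 3 (edgeR adjusted p between 0.0520 and 0.0741), and Clec12a was called in each of the 6 fits that left out 1 library. Marco, Saa3 and Clec4e did not pass the filter here and are given by their counts above. With no filter on low counts, and also with all 9 libraries in one fit, Clec4e was called higher in DCM (3.58 in both, edgeR adjusted p = 0.0187 and 0.0122) and Plac8 lower. Clec4e also passed the filter and was called without CK replicate 1. The count of 0 higher thus holds for the 7 genes that passed with all libraries of this comparison.

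SPM compared to DCM was the contrast by which the genes were chosen. In it 6 of 10 were called higher (Marco, Saa3, Chil3, Plac8, Adgre4 and Clec12a), beside 2.7% of all 14493 genes tested, and 0 were called lower, beside 0.89%. The libraries of 8 did not overlap, beside 19.1% of all genes, and the log2 difference was above 0 for each of the 10. The median over the 10 was 1.64 and over all genes 0.01. The number called was 3 without SPM replicate 2 (Marco, Saa3 and Plac8), with 56 genes called in all, and 4 without DCM replicate 1 or without DCM replicate 2.

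SPM compared to CK sets the treated diabetic hearts beside hearts that received neither agent, and it shares the SPM libraries on which the genes were chosen. Chil3, Clec4e, Marco, Plac8 and Saa3 were upregulated, 5 of 10, beside 5.08% of 14574 genes called higher, and 0 were called lower, beside 4.12%. The log2 change was 4.67 for Clec4e (SE 0.64, adjusted p = 1.98e-03 by edgeR), 4.02 for Saa3 (SE 0.75, adjusted p = 6.28e-03), 3.70 for Chil3 (SE 0.63, adjusted p = 4.42e-03), 3.33 for Marco (SE 0.88, adjusted p = 0.0242) and 0.98 for Plac8 (SE 0.23, adjusted p = 0.0145). Marco was not called without SPM replicate 1 (2.89), without SPM replicate 2 (3.42) or with DESeq2 (3.43), and Plac8 was not called without SPM replicate 2 (0.98). The Clec4e value rests on 3 counts in CK, and the ratio of group totals was 28.7 with a 95% counting interval of 9.47 to 142. The same 5 genes had SPM libraries above all CK libraries, as did 22.7% of all genes. Ly6c2 (0.46, SE 0.28), Adgre4 (0.25, SE 0.31), Clec12a (-0.07, SE 0.19), Il1b (-0.14, SE 0.33) and Cd14 (-0.19, SE 0.25) did not pass, with edgeR adjusted p between 0.256 and 0.802. The median over the 10 was 0.72, beside 0.00 for all genes. Side by side, the values show unlike courses. Adgre4 and Clec12a were lower in DCM, and their SPM values overlapped those of CK. Clec4e had more counts in each DCM and SPM library than in any CK library, and Marco, Saa3 and Chil3 were higher in each SPM library than in any CK or DCM library, while their CK and DCM counts overlapped.

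**Figure D2:**
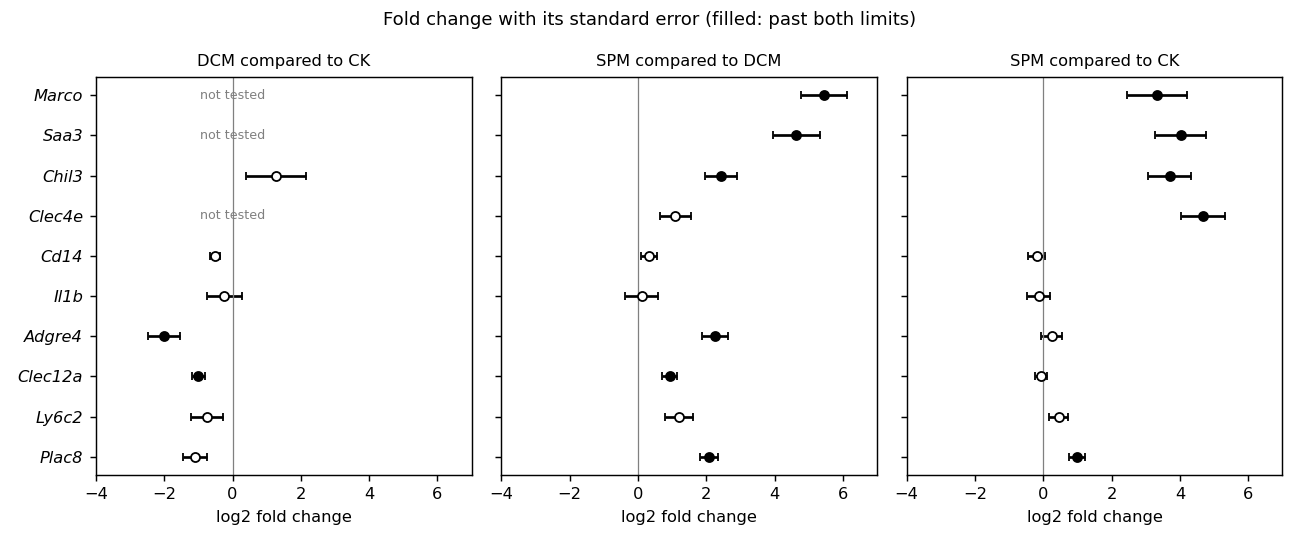
Log2 fold change (horizontal axes) of each gene in the 3 comparisons, with bars for the standard error and filled points for genes past both limits. Adgre4 (-2.002) and Clec12a (-0.996) lay below 0 in DCM compared to CK and above 0 in SPM compared to DCM (2.25 and 0.93).

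The genes high in CK replicate 2 included Marco (17 of 18 CK counts), Saa3 (28) and Chil3 (38). In that library the 8 lung epithelium genes summed to 56.0 CPM, compared to 0 to 0.228 CPM in the other 8 libraries. Liver markers were also highest there within CK, at 94.3 CPM against 20.8 and 25.1, with Alb at 1010 counts against 75 and 33. Alveolar macrophages, the lung's own macrophages, are known to express Marco and Chil3. The 6 of 9 alveolar macrophage markers in the table summed to between 62.1 and 71.8 CPM in CK, 88.9 and 97.4 in DCM, and 72.8 and 83.4 in SPM. Most of that sum was Car4, which vessels also express, at 56.4 to 59.6, 82.5 to 91.8 and 67.7 to 70.6 CPM, and Siglecf, the defining surface marker, had 0 to 4 counts per library. Within CK the sum was highest in replicate 2 (71.8 CPM against 62.1 and 63.8). That library also held 501 of 709 CK counts of Cidec and 4 of 5 of Siglecf, whereas Car4 was lowest there (56.4 CPM). Of the alveolar list, 0 of the 3 tested were called in SPM compared to DCM. Without CK replicate 2, the log2 change of SPM from CK was 6.52 for Marco, 5.24 for Saa3 and 5.37 for Chil3. CK replicate 2 held the highest CK counts of the 3 genes, so a larger difference without it was fixed by construction. Without CK replicate 1 and without CK replicate 3, Marco was at 2.87 and 2.79 and was not called (edgeR adjusted p = 0.0775 and 0.0518).

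Within the SPM group the 10 genes fell into a pair of patterns. Marco, Saa3, Cd14 and Clec12a were highest in SPM replicate 1 and lowest in replicate 3, at CPM ratios of replicate 1 to replicate 3 of 2.70, 5.68, 2.20 and 1.67. Chil3, Clec4e, Il1b, Adgre4, Ly6c2 and Plac8 were nearly even, with ratios between 0.760 and 1.01. The same order of libraries was seen for Cxcl13, a chemokine that attracts B cells (10.3), for the macrophage genes Adgre1 (2.24) and C1qa (1.88), for the neutrophil gene S100a8 (2.70) and for Alb, which differed 839-fold. The 13 of 14 liver markers in the table summed to 426, 217 and 44.1 CPM in SPM replicates 1, 2 and 3, and to between 20.8 and 94.3 in CK and 36.0 and 43.7 in DCM. In DCM, Serpina1c, Fga and Mup20 of the list were at 0. Liver genes thus had the order of Marco and Saa3 across the SPM libraries. Heart muscle (39322, 42570.5 and 45402 CPM), mesothelium (32.6, 66.0 and 94.3) and nonclassical monocyte (124, 153 and 179) sums had the opposite order in SPM replicates 1, 2 and 3. Replicate 2 lay between the others for 66.2% of all genes, and the share of genes in each order was not counted.

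SPM replicate 3, with liver markers near the DCM level, was read alone against DCM. For the 8 genes whose SPM and DCM libraries did not overlap, it lay above the highest DCM library by construction. For Cd14 and Il1b it did not lie above that library. The share of all genes for which this single library lay above all DCM libraries was not counted. These values come from the contrast by which the genes were chosen, so they are a description only. Its CPM was 13.8 times that of the highest DCM library for Marco, 4.81 times for Saa3, 3.82 for Chil3, 3.70 for Adgre4 and 3.58 for Plac8, and between 1.22 and 1.69 times for Ly6c2, Clec4e and Clec12a. With SPM replicates 1 and 2 left out, a setting chosen after seeing the data, the log2 difference from DCM was 4.65 for Marco and 2.89 for Saa3. That fit leaves 1 SPM library, so its calls are not given. The lone SPM library is assumed there to vary like the other groups.

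**Figure D3:**
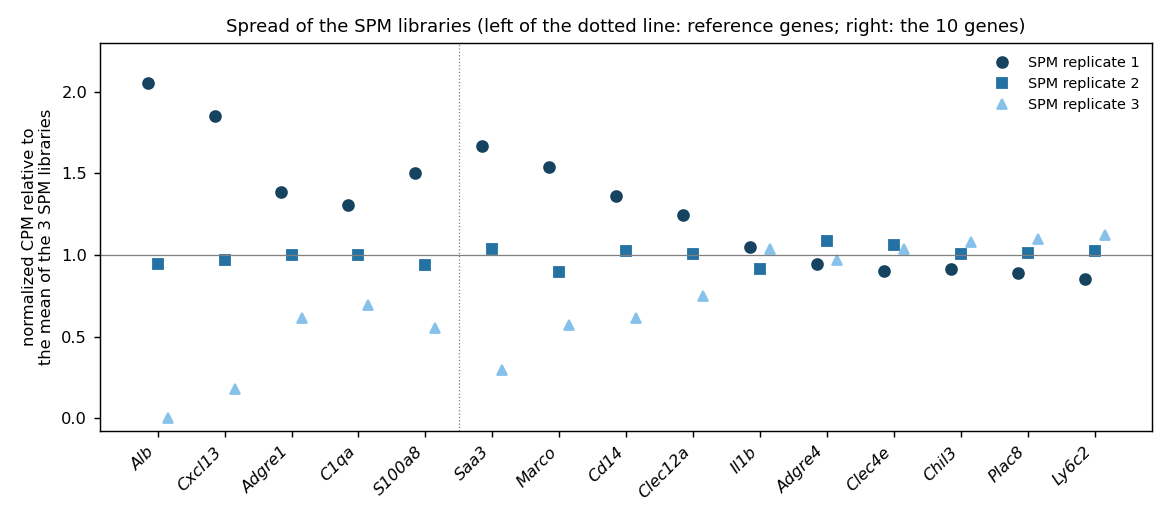
Normalized CPM in SPM replicates 1, 2 and 3 (dark to light) relative to their mean, for 5 reference genes left of the dotted line and the 10 genes to its right. Saa3, Marco, Cd14 and Clec12a spread in the order of the reference genes, and the other 6 genes lay near 1 in all 3 libraries.

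Kupffer cells, the macrophages of the liver, are known to express Marco. Their 6 markers, all in the table, summed to between 8.31 and 14.9 CPM in CK, 13.4 and 15.02 in DCM, and 18.6 and 27.5 in SPM. Cd5l, a scavenger-receptor-like protein that blocks macrophage death, Vsig4, a complement receptor, and C6, a complement component, were called higher in SPM compared to DCM, 3 of 5 tested, and 0 without SPM replicate 2 or without DCM replicate 2. Across SPM replicates 1, 2 and 3 the sum was 27.5, 21.8 and 18.6 CPM, the order of Alb. C6 ranged from 15 to 105 counts and Vsig4 from 232 to 409 over the SPM libraries. Cd5l ran against the order of the sum. Its counts were 24, 2 and 5 in DCM and 44, 45 and 76 in SPM, highest in the SPM library with 9 counts of Alb. Clec4f, the marker that defines Kupffer cells and which was picked after its values were seen, had 10, 2 and 7 counts in DCM and 10, 7 and 8 in SPM. The part of liver or lung RNA in the differences of Marco and Saa3 was not tested.

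**Figure D4:**
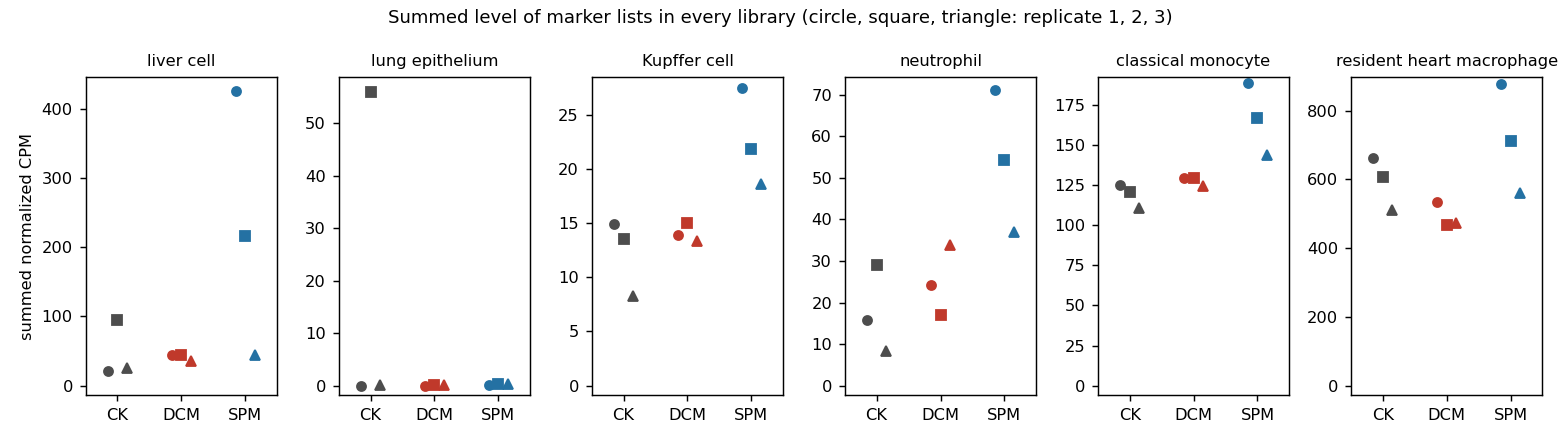
Summed normalized CPM (vertical axes from 0) of 6 marker lists in each library, with circles, squares and triangles for replicates 1, 2 and 3. Liver markers were at 426 and 217 CPM in SPM replicates 1 and 2 and at 44.1 in replicate 3, and lung epithelium markers were at 56.0 CPM in CK replicate 2.

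Monocyte markers outside the set were higher in SPM than in DCM in part. Of the classical monocyte list, 9 of 10 were in the table, 8 were tested and 2 were called higher in SPM compared to DCM (0 lower, median log2 change 0.63). These were Ccr2, the chemokine receptor by which monocytes leave the marrow, with 122, 52 and 90 counts in DCM and 263, 174 and 125 in SPM (1.24, SE 0.27), and F13a1, a coagulation factor that resident macrophages also express (0.60, SE 0.13). Mgst1, the gene of this list with the highest level, was at 0.15 (SE 0.09). Of the nonclassical list, 7 of 8 were tested, 5 were called higher and 1 lower, with a median of 0.91. Fcgr4, an activating IgG receptor, rose by 2.26 (SE 0.30), Cd300e by 3.47 (SE 0.64), Spn (CD43) by 1.60 (SE 0.22), Itgal by 0.91 (SE 0.22) and Cx3cr1, the fractalkine receptor, by 0.82 (SE 0.14), whereas Nr4a1, a nuclear receptor that these cells need and many others express, fell by 0.84 (SE 0.21). The counts of Cd300e were 7, 0 and 2 in DCM and 28, 35 and 29 in SPM, even across the SPM libraries as for Chil3 and Plac8. In DCM compared to CK, Cx3cr1 fell by 1.86 (SE 0.25, edgeR adjusted p = 5.47e-04) and in SPM it was still below CK (-1.04, SE 0.26). Fcgr1 and Vcan of the classical list were also called lower in DCM compared to CK, and they are named after seeing their values. With 1 library left out, the number called in SPM compared to DCM ranged between 0 and 4 for the classical list and between 2 and 6 for the nonclassical list. It was 0 and 2 without SPM replicate 2, 0 and 4 without DCM replicate 1, and 0 and 3 without DCM replicate 2.

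The list of C-type lectins beside Clec4e and Clec12a held 7 receptors and 6 signalling genes. Of these 13, 12 were tested, and 5 were called higher and 0 lower in SPM compared to DCM, with a median of 0.80. The 5 were receptor genes: Clec5a (1.81, SE 0.39), Clec4d, the partner of Mincle (1.72, SE 0.48), Clec4n, which encodes Dectin-2 (1.18, SE 0.27), Clec4a3 (1.06, SE 0.28) and Clec4a1 (1.04, SE 0.29). Of the signalling genes, the following did not pass, with Syk at 0.00 (SE 0.06), Bcl10 at 0.10 (SE 0.09) and Fcer1g at 0.49 (SE 0.19), and Ptpn6, an inhibitory phosphatase, was at 0.56 (SE 0.14) and within 1.5-fold. Clec4d had 125, 81 and 36 counts in SPM against 32, 10 and 39 in DCM, in the order of Marco and Saa3. No gene of this list was called without SPM replicate 2, without DCM replicate 1 or without DCM replicate 2, and with 1 library left out the number ranged between 0 and 8. In DCM compared to CK the median of the list was -0.42, with Clec7a and Fcer1g called lower. In SPM compared to CK it was 0.28, with Clec4d and Clec5a called higher and Clec7a lower.

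Of the LPS receptor and IL-1 list, 19 of 23 genes were tested, and 1 was called higher and 0 lower in SPM compared to DCM. It was Il1rn, the IL-1 receptor antagonist, with 7, 4 and 8 counts in DCM and 29, 16 and 20 in SPM (1.89, SE 0.47), and it was not called without SPM replicate 2. The median log2 change was 0.38, with 15 of the 19 above 0. Nfkb1 (-0.06, SE 0.07), Rela (-0.20, SE 0.07) and Nfkbia (0.05, SE 0.13) did not pass. Il1r1 (0.45, SE 0.08, edgeR adjusted p = 0.0111), Tlr4 (0.41, SE 0.11, adjusted p = 0.0340) and Traf6 (0.39, SE 0.10, adjusted p = 0.0280), the receptors of IL-1 and endotoxin and an adaptor of both, passed the limit on p but were within 1.5-fold. Tlr4 and Traf6 are named after seeing their values. Nfkbia, the inhibitor of NF-kB, was higher in DCM than in CK by 0.60 (SE 0.11, edgeR adjusted p = 5.02e-03).

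**Figure D5:**
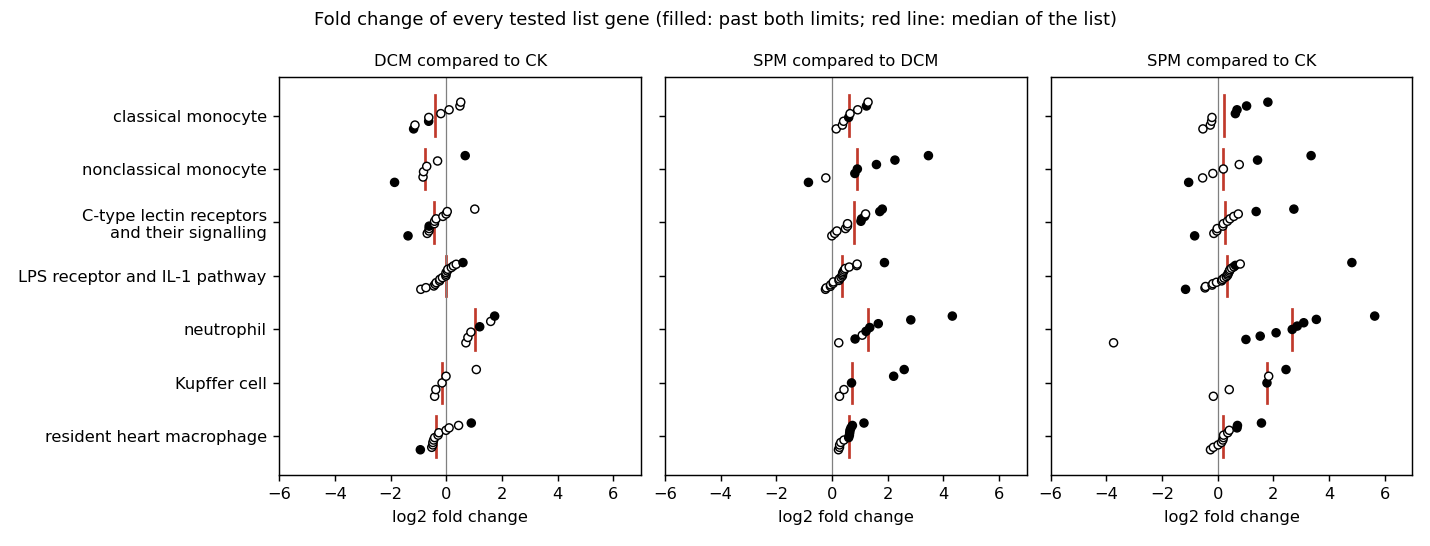
Log2 fold change (horizontal axes) of each tested gene of 7 lists in the 3 comparisons, filled where past both limits, with a red line at the median of the list. In SPM compared to DCM the medians were 0.63 for classical monocytes, 0.91 for nonclassical monocytes, 0.80 for C-type lectins, 0.38 for the LPS receptor and IL-1 pathway and 1.29 for neutrophils.

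The close families of the members moved in few cases. Of the class A scavenger receptors beside Marco, Msr1 was called higher in SPM compared to DCM (0.98, SE 0.25), and Colec12 (0.15, SE 0.09), Scara3 (-0.12, SE 0.14) and Scara5 (0.00, SE 0.08) were not. Adgre1, the gene of F4/80, followed Adgre4 in direction, at -0.93 (SE 0.10) in DCM compared to CK and 1.15 (SE 0.23) in SPM compared to DCM, while its relative Adgre5 was at -0.19 (SE 0.07) in the latter. The Ly6 genes of chromosome 15 had 0 of 4 tested called, with Ly6c1 at -0.03 (SE 0.10) and Ly6a at 0.31 (SE 0.07, within 1.5-fold). Of the chitinase family, Chil1 was the only gene tested in SPM compared to DCM and was not called (0.67, SE 0.25). Of 20 acute phase genes 9 were tested, with Hp (1.49, SE 0.34) and Hpx (5.35) called higher and Cebpb lower (-1.01, SE 0.31), and Hpx was at 0 counts in SPM replicate 3. Msr1, Adgre1, Hp, Hpx and Cebpb were not called without SPM replicate 2, and neither without DCM replicate 2.

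Markers of other cells differed too. Of the neutrophil list, 6 of 8 tested were called higher in SPM compared to DCM (Ngp, Mmp8, S100a8, S100a9, Retnlg and Csf3r), and the 13 genes summed to between 17.0 and 33.9 CPM in DCM and 37.0 and 71.1 in SPM. Mpo was at 0 in each CK and DCM library, and 1 gene of this list was called without SPM replicate 2. Of 12 resident heart macrophage genes, 7 were called higher, among them C1qa (0.73, SE 0.19) and Lyve1 (0.68, SE 0.07) but not Csf1r (0.23, SE 0.10), and the sum was between 467 and 534 CPM in DCM and 561 and 877 in SPM. Here too 1 was called without SPM replicate 2. Of the liver list, 6 of 7 tested were called higher, and between 0 and 11 with 1 library left out. Among peritoneal macrophage markers Cxcl13 and Alox15 were called, 2 of 5 tested, with sums between 118 and 130 CPM in DCM and 141 and 196 in SPM. Of those sums Gata6, which heart muscle also expresses, gave 87.4 to 100.5 CPM in DCM and 101.2 to 104.0 in SPM, and Cxcl13 gave 2.58 to 2.88 and 5.86 to 60.1. Of mesothelium markers 0 of 6 were called, of heart muscle markers 1 of 7 (Nppa), and of the retina list 0 of 2. No lung epithelium gene passed the filter. The part of these cell types in the values of the 10 genes was not tested.

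Marco and Saa3 followed each other over the 9 libraries, with a Pearson r of 0.98 on log2(CPM + 0.5), values that share the 3 groups and 9 libraries. Both genes were selected for their rise in SPM compared to DCM, which by itself gives a high r, so this is a description only. Among 13704 other genes, those most like Marco were Sh3kbp1 (0.991), Il1r1 (0.981), F3 (0.979), Taf4 (0.974) and Ifi204 (0.971). Saa3 was most like 1 gene without a reviewed symbol (0.990), followed by Sh3kbp1 (0.983), F3 (0.975), Ahr (0.974) and Ms4a6d (0.970). The gene without a reviewed symbol was at 0.156 ± 0.139 CPM in CK, 0.148 ± 0.103 in DCM and 1.49 ± 0.977 in SPM. Differences of the other genes were far smaller than that of Marco. Il1r1, the IL-1 receptor, was at 22.5 ± 1.22 CPM in CK, 22.3 ± 0.989 in DCM and 30.2 ± 1.65 in SPM. None of the 10 entries recurred when genes were ranked by Spearman's rho.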

How the data were processed

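Gene counts were deposited by the authors as 1 table of whole numbers with a total for each library, and per-library FPKM values were deposited beside it. The FPKM values equal the deposited counts divided by a gene length and by the library total (largest relative deviation 8.58e-13). The submitters' processing notes name Bowtie 0.12.2 and the builds mm8 and mm9, and the study's methods name fastp 0.18.0. The gene IDs and coordinates were matched to GENCODE M21 on GRCm38, which named 22820 of 22851 IDs, so no coordinate was carried between builds.

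The 10 genes, the 19 gene lists and the tests were chosen with earlier results of these data known. Groups were compared in pairs on the 6 libraries of each comparison with edgeR 4.0.16 in R 4.3.3, using its filter on low counts, TMM scaling and the quasi-likelihood test with Benjamini-Hochberg adjustment over all genes tested. A gene was called at an adjusted p below 0.05 and a change of at least 1.5-fold. Totals ranged from 29901300 to 39718680 counts per library. Intervals and floors (3 counts) cover counting error only. The code was tested on simulated data. Named genes were drawn from the 10 genes, their closest relatives, the 4 most abundant genes of each list, its genes called in SPM compared to DCM (at most 6), and the 5 genes most like Marco and like Saa3, and not each gene that this rule allows is described. Genes named for calls in the other comparisons were picked after their values were seen. Replicate numbers did not pair the libraries, since the correlations of their deviations from the group means were between -0.0746 and 0.205 for 9 pairs with the same number, and between -0.284 and 0.217 for 18 pairs with different numbers. Alternatives were RLE scaling, other filters and fold limits, a replicate block, GC content as an offset, all libraries in one fit, DESeq2 1.42.0, limma 3.58.1 on log2(FPKM + 0.1), each library left out in turn and, chosen after seeing the data, SPM replicates 1 and 2 left out. Itgam, Myd88, Il1a, Chil4 and Actc1 were among list genes not analysed here.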

Additional observations from a re-analysis of the deposited data

How the results depend on the processing

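Of 449 fold changes of the 10 genes recomputed under the alternatives, 402 kept their direction and their side of the limits, 25 no longer passed, 14 passed newly and 8 changed sign. In DCM compared to CK, where 2 genes were called, the number was 4 with no filter on low counts, 4 with limma on FPKM, 4 with all 9 libraries in one fit and 1 with a filter of at least 1 CPM in 3 libraries. With 1 library left out it ranged from 1 (without CK replicate 2, DCM replicate 2 or DCM replicate 3) to 4 (without CK replicate 3). In SPM compared to DCM, where 6 were called, it ranged with 1 library left out from 3 (without SPM replicate 2) to 6. It was 7 with no filter on low counts and with DESeq2 (Ly6c2 added), and 5 with GC content as an offset. In SPM compared to CK, where 5 were called, it ranged with 1 library left out from 3 (without SPM replicate 2) to 5. With the replicate number as a block, the numbers were 2, 7 and 5, and the change in calls was 1 gene, Ly6c2, called in SPM compared to DCM. Sign changes concerned values that were small with all libraries of the comparison. Il1b in DCM compared to CK ranged from -0.83 to 0.20 on the log2 scale with 1 library left out, in SPM compared to DCM from -0.33 to 0.70, and in SPM compared to CK from -0.44 to 0.11. Cd14 in SPM compared to CK ranged from -0.48 to 0.0629 and Clec12a from -0.26 to 0.10. Cd14 in SPM compared to DCM was at -0.37 without SPM replicates 1 and 2, and Adgre4 in SPM compared to CK at -0.10 with the GC offset. The cause of these moves was not tested, beyond the smaller number of libraries. Of the 10 entries most like Marco and Saa3, filled by 8 genes, 6 were shared with the ranking on log2(CPM + 2), 0 with that by Spearman's rho and 8 without SPM replicate 2. Of 405 recomputed list counts, 277 stayed within 1.5 times and 128 moved further. The filter on low counts left Marco, Saa3 and Clec4e out of DCM compared to CK.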
